A study of Homo sapiens with 9 samples.

Results

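The genes described here encode the nuclear lamins, the lamin B receptor, emerin and other proteins that carry the LEM domain, together with the small DNA-binding protein that the LEM domain holds. They were chosen by name as LMNA, LMNB1, LMNB2, LBR, EMD, LEMD2, LEMD3, TMPO, BANF1 and ANKLE2, which makes 10 of the 62666 genes in the table. All 10 passed the filter on low counts, which left 17910 genes. RNA was measured in MCF10A, an immortalised human breast epithelial line that does not form tumours, in MCF10AT1, a premalignant derivative of it that carries an activated HRAS, and in MCF10Ca1a, a malignant derivative of the same lineage. Each line was sequenced as 3 libraries of polyA RNA. All lines were grown with insulin, epidermal growth factor, hydrocortisone and cholera toxin, and the horse serum was 5% for MCF10A and MCF10Ca1a and 2.5% for MCF10AT1, so serum cannot be told apart from line in the comparisons with MCF10AT1. Each group is 1 cell line, and nothing in the labels says that the libraries of a line came from separate cultures, so the p-values measure only the spread between these libraries.

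The lamina is a meshwork of A-type lamins (from LMNA) and B-type lamins (from LMNB1 and LMNB2) under the inner nuclear membrane. Membrane proteins such as the lamin B receptor, emerin and several products of TMPO tie the lamina to chromatin, and many of them do so through the LEM domain, which binds barrier-to-autointegration factor, the product of BANF1. In epithelial cells the lamina gives the nucleus stiffness and holds silent chromatin at the nuclear edge, and the envelope is taken apart and rebuilt at each division.

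The MCF10Ca1a libraries were shallower, with total estimated counts of 32930503 to 35243012, than those of the other lines, at 62898823 to 69508842. Counts scaled for depth (CPM) were compared between lines. Of 6 epithelial marker genes, 0 were at or under 3 counts in any line, but their levels differed between lines. KRT14, a basal keratin, was at 289 to 346 CPM in MCF10A, 62.9 to 67.9 in MCF10AT1 and 5.87 to 6.75 in MCF10Ca1a, and KRT5, its partner, at 2325 to 2860, 3051 to 3439 and 674 to 709. KRT8 was at 171 to 201, 781 to 884 and 642 to 686 CPM, KRT18 at 321 to 381, 798 to 855 and 833 to 893, EPCAM at 29.4 to 30.9, 131 to 147 and 266 to 269, and CDH1 at 124 to 173, 142 to 147 and 730 to 769. The fibroblast markers COL1A2 and COL3A1, the endothelial markers VWF and CDH5 and the leukocyte markers PTPRC and CD3E were at or under 3 counts in every line. Other genes of the same lists were counted and differed between lines: DCN was at 3.91 to 4.75 CPM in MCF10A, 30.2 to 31.3 in MCF10AT1 and 0.0297 to 0.254 in MCF10Ca1a, and COL1A1 was at 8.28 to 10.0, 3.04 to 3.67 and 4.80 to 5.50 CPM. PECAM1 was at 2.82 to 3.32, 3.20 to 4.12 and 42.0 to 49.4 CPM, and CD14 at 8.59 to 9.44, 4.31 to 4.56 and 0.119 to 0.338. The summed fibroblast list was at 13.2 to 14.2, 33.5 to 34.8 and 5.28 to 5.95 CPM in the 3 lines, and the part of these epithelial and other marker genes in the members' values was not tested. MCF10A replicate 1 stood somewhat apart from the other MCF10A libraries, with root mean square log2 distances of 0.165 and 0.215 against 0.128 between the others. A set of 16 genes of cell division, MKI67, CDK1 and TOP2A among them, were summed as a reference, and they reached 4211 to 4336 CPM in MCF10A, 3128 to 3222 CPM in MCF10AT1 and 974 to 995 CPM in MCF10Ca1a.

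Between MCF10AT1 and MCF10A, 3 members were higher, 6 were lower and LEMD2 was not called, by edgeR's quasi-likelihood test at an adjusted p under 0.05. Of all genes tested, 61.6% were called in that comparison, 29.8% higher and 31.8% lower, and on TPM values only 36.2% of the calls were higher, against 48.4% by counts. Between MCF10Ca1a and MCF10AT1, 1 member was higher, 8 were lower and LEMD3 was not called, beside 78.4% of all genes called, 38% higher and 40.3% lower. On TPM values 61.6% of the calls in this comparison were higher, against 48.5% by counts. Between MCF10Ca1a and MCF10A, 1 member was higher, 8 were lower and LMNA was not called, beside 80.9% of all genes called, 39% higher and 41.9% lower. The median log2 change of the 10 members was -0.28, -0.64 and -1.04 in these 3 comparisons, and that of all genes tested was -0.00, -0.04 and -0.05. The median absolute log2 change was 0.38, 0.64 and 1.04 for the members and 0.38, 0.76 and 0.84 for all genes. The comparisons share libraries, so their values are given side by side and not as separate evidence. In RNA from whole cultures, fewer cells expressing a gene and less RNA per cell cannot be told apart.

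**Figure D1:**
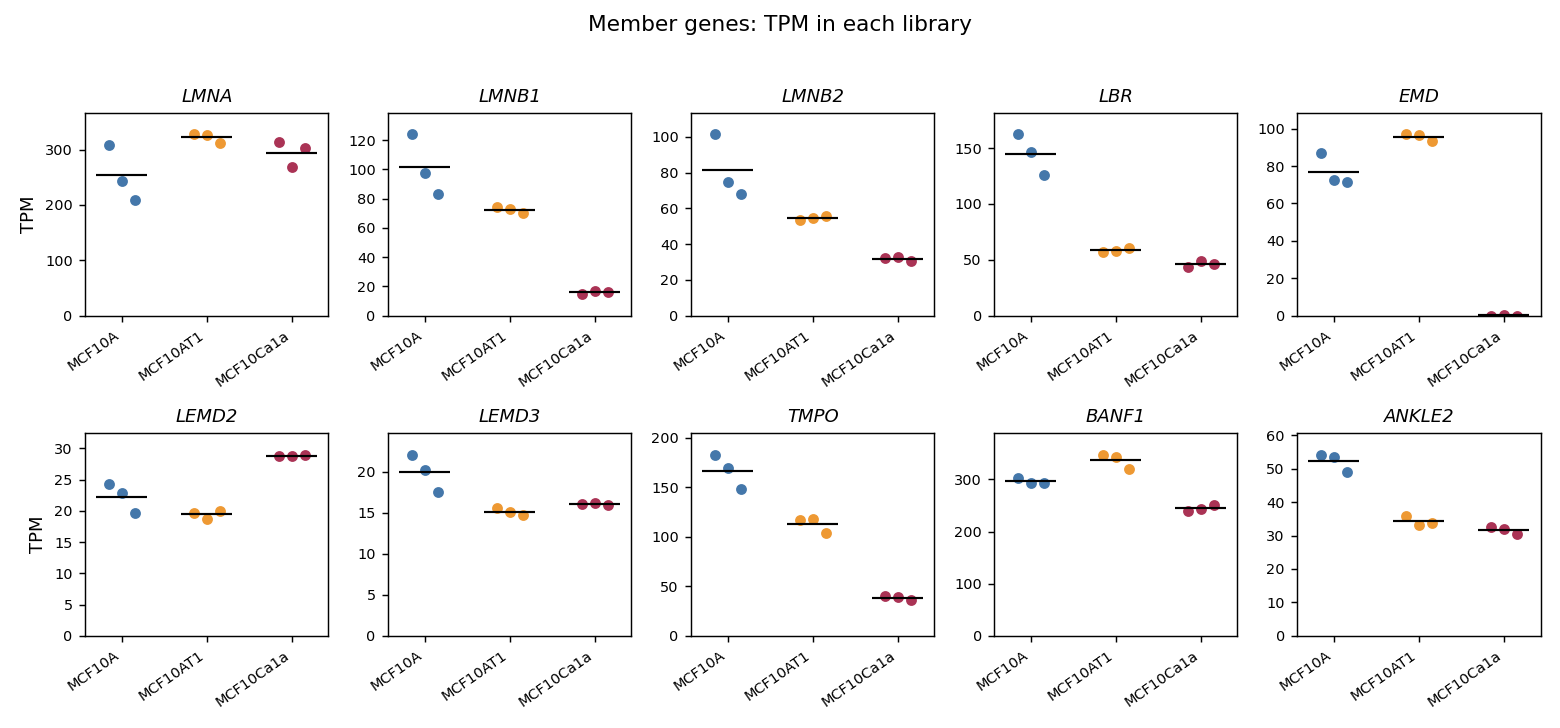
TPM, which scales for transcript length and depth, of each member gene on the vertical axis, from 0, in the 3 libraries of each line (points), with the line's mean as a bar. EMD is at or near 0 in all 3 MCF10Ca1a libraries, and LMNB1 and TMPO are lowest in MCF10Ca1a.

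EMD, which encodes emerin, an inner nuclear membrane protein that binds lamins, was present in 2 lines and nearly absent from the third. The 3 MCF10A libraries held 3580, 3409 and 3825 counts of EMD, those of MCF10AT1 held 5047, 5035 and 4620, and those of MCF10Ca1a held 0, 1 and 0. All MCF10AT1 libraries lay above all MCF10A libraries in CPM, and all MCF10Ca1a libraries lay below both. Scaled for depth, EMD was 5709 times higher in MCF10A than in MCF10Ca1a (95% exact interval 1025 to 225528, from 10814 counts against 1) and 7906 times higher in MCF10AT1 (1419 to 312309, from 14702 counts against 1). These intervals cover counting error only. EMD rose by 0.47 ± 0.05 (SE) on the log2 scale from MCF10A to MCF10AT1, with an adjusted p of 3.17e-06, and on log2(TPM + 0.1) that call was lost, with an adjusted p of 0.167.

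EMD lies on chromosome X at 154379197 to 154381523 on the plus strand of GRCh38. The stretch just before its start is shown because EMD was the member nearly absent from 1 line. It is 152 bases, 71.7% G or C, with 17 CG pairs and 2 copies of CCAAT (capitals), from RefSeq's GRCh38.p14 promoters. CCAAT was searched on both strands, and 35.7% of 27195 promoters of 300 bases, longer than the stretch shown, hold it. Among the members' promoters of that length, those of TMPO also hold 2 copies. The LEMD3 promoter and 1 promoter each of LMNA and LMNB1 hold 1. The part of CCAAT in the EMD values was not tested.
EMD, chrX:154379045-154379196, plus strand: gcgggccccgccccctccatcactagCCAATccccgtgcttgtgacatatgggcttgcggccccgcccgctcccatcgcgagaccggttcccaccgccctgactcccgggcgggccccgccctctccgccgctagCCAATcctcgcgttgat

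The nearest tested protein-coding genes on each side of EMD also had lower values in MCF10Ca1a, though neither was near 0. FLNA, the actin crosslinker filamin A, 4559 bases away, had MCF10A counts of 72253, 57700 and 60094, MCF10AT1 counts of 63000, 64728 and 65634, and MCF10Ca1a counts of 1704, 1489 and 1594. It fell by 4.44 ± 0.11 on the log2 scale from MCF10AT1 to MCF10Ca1a (adjusted p 2.81e-13). RPL10, a large ribosomal subunit gene 8432 bases away, fell by 1.32 ± 0.06 (adjusted p 8.03e-11). Neither was called between MCF10AT1 and MCF10A, at 0.05 for FLNA and 0.13 for RPL10. Without MCF10A replicate 1, FLNA was called higher at 0.18 (adjusted p 0.00877). RPL10 was called higher in 3 of 20 alternatives, with DESeq2 (0.12), length-scaled counts (0.14) and without MCF10A replicate 3 (0.16). Each comparison had 18 neighbours of a called member, counting both sides. Between MCF10AT1 and MCF10A, 8 were called in the member's direction and 2 in the other, beside 61.6% of all genes called. Between MCF10Ca1a and MCF10AT1 these were 9 and 8, beside 78.4%, and between MCF10Ca1a and MCF10A 10 and 7, beside 80.9%.

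LMNB1, which encodes lamin B1, was lowest in MCF10Ca1a by a wide margin. Its TPM was 124, 97.5 and 83.2 in MCF10A, 74.0, 72.9 and 70.4 in MCF10AT1, against 14.4, 17.1 and 15.9 in MCF10Ca1a, with no overlap between lines. LMNB1 fell by 2.51 ± 0.09 on the log2 scale from MCF10AT1 to MCF10Ca1a, a 5.68-fold difference (adjusted p 9.58e-12), and by 0.33 ± 0.08 from MCF10A to MCF10AT1 (adjusted p 0.00251). Without MCF10A replicate 1, which had the highest MCF10A value, the smaller difference was -0.21. LMNB2, which encodes lamin B2, had 101, 74.6 and 68.1 TPM in MCF10A, 53.5, 54.4 and 56.0 in MCF10AT1, against 32.1, 32.9 and 30.6 in MCF10Ca1a. It fell by 0.38 ± 0.08 and then by 1.02 ± 0.08 (adjusted p 0.00112 and 6.03e-08). LMNB2 shares part of its locus, on the same strand, with TIMM13, so its reads could be split between the genes by the authors' counting. Most of the division genes were lower too, with 13 of 16 lower and 2 higher in MCF10AT1 than in MCF10A, beside 31.8% of all genes lower, and 16 of 16 lower in MCF10Ca1a than in MCF10AT1 (median log2 change -2.02), beside 40.3%. Their part in the lamin B values was not tested.

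LMNA, which encodes lamins A and C, was the only lamin gene not called between MCF10Ca1a and MCF10A. Its TPM was 309, 244 and 209 in MCF10A, 328, 327 and 312 in MCF10AT1, against 313, 269 and 302 in MCF10Ca1a. The TPM range of MCF10Ca1a overlapped those of both other lines, and MCF10AT1 lay above MCF10A. In CPM, on which the test rests, all MCF10AT1 libraries (639 to 681) lay above those of MCF10A (425 to 536) and MCF10Ca1a (461 to 495). LMNA rose by 0.49 ± 0.08 on the log2 scale from MCF10A to MCF10AT1 (adjusted p 8.00e-05) and fell by 0.48 ± 0.08 from MCF10AT1 to MCF10Ca1a (5.80e-05). The difference between MCF10Ca1a and MCF10A was 0.01 ± 0.08 (adjusted p 0.882), which does not show that the levels were equal. The fall after MCF10AT1 was lost on TPM, where it was -0.13 with an adjusted p of 0.344 and the median of all genes was 0.13, and the rise was lost on TPM without a filter (0.36, adjusted p 0.0801).

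As a share of the summed TPM of the 3 lamin genes, LMNA made up 58.2% ± 0.5 (SD, n = 3) in MCF10A, 71.7% ± 0.5 in MCF10AT1 and 86.0% ± 1.5 in MCF10Ca1a. LMNB1 made up 23.2% ± 0.2, 16.1% ± 0.1 and 4.64% ± 0.68. LMNB2 made up 18.6% ± 0.6, 12.2% ± 0.5 and 9.34% ± 0.85. The LMNA to LMNB1 ratio of TPM was 2.50 ± 0.01 in MCF10A, 4.45 ± 0.04 in MCF10AT1 and 18.8 ± 3.0 in MCF10Ca1a. On the log2 scale the differences were 0.83, 2.07 and 2.90 for MCF10AT1 against MCF10A, MCF10Ca1a against MCF10AT1 and MCF10Ca1a against MCF10A, and in each the 3 libraries of the first line lay above the 3 of the second. The exact two-sided permutation test gave p = 0.1 for each, the smallest that 3 libraries against 3 allow.

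**Figure D2:**
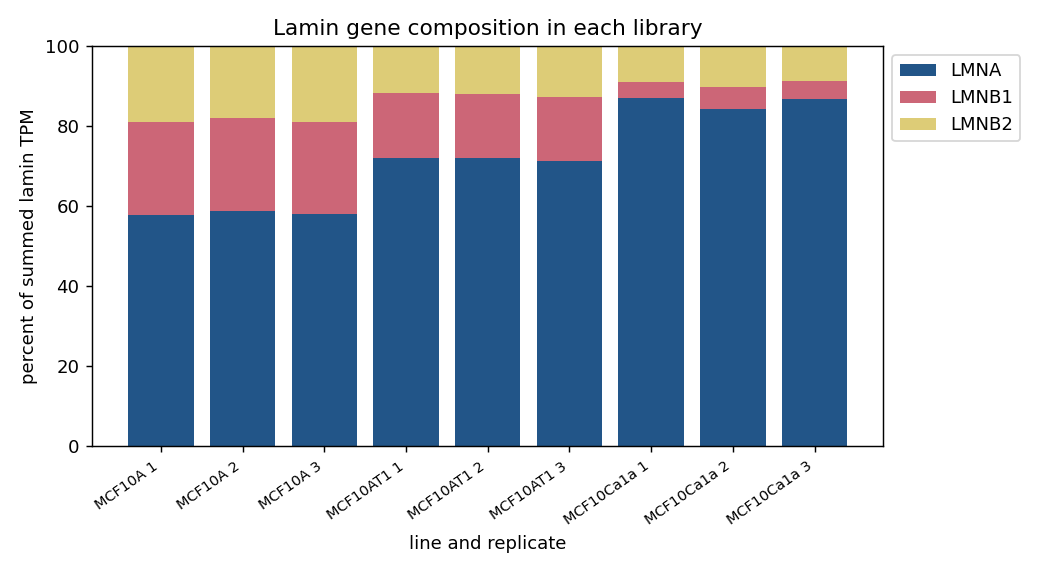
Percent of the summed TPM of the 3 lamin genes (vertical axis) that came from LMNA, LMNB1 and LMNB2 in each of the 9 libraries. The LMNA share is near 58.2% in MCF10A, 71.7% in MCF10AT1 and 86.0% in MCF10Ca1a.

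LBR encodes the lamin B receptor, which is also a sterol reductase. Its TPM was 162, 147 and 126 in MCF10A, 56.8, 58.0 and 60.2 in MCF10AT1, against 43.6, 48.7 and 46.2 in MCF10Ca1a, with no overlap between lines. LBR fell by 1.14 ± 0.06 on the log2 scale from MCF10A to MCF10AT1 (adjusted p 8.26e-10) and by 0.62 ± 0.06 from MCF10AT1 to MCF10Ca1a (2.04e-07). On log2(TPM + 1) the second difference was -0.33. TM7SF2, which encodes the other sterol reductase of the same reaction, rose by 1.71 ± 0.10 from MCF10A to MCF10Ca1a (1.41e-09).

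TMPO encodes the lamina-associated polypeptides 2 (LAP2). Its TPM was 183, 169 and 149 in MCF10A, 117, 118 and 104 in MCF10AT1, against 40.4, 39.1 and 36.0 in MCF10Ca1a. TMPO fell by 0.38 ± 0.06 and then by 1.90 ± 0.06 on the log2 scale (adjusted p 4.82e-05 and 3.18e-12). An antisense gene, TMPO-AS1, overlaps it and had MCF10A counts of 533, 535 and 521, MCF10AT1 counts of 235, 238 and 211, and MCF10Ca1a counts of 32, 34 and 28. The libraries were stranded, but whether the counting used strand is not given in the sources used here, so reads of the pair may be mixed.

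The TMPO forms did not keep the same proportions. LAP2 alpha (694 codons) lacks a membrane anchor and lies within the nucleus, and LAP2 beta (454 codons) spans the inner nuclear membrane. Their coding sequences share 565 bases and then part, and the bases around that point on chromosome 12 of GRCh38 are shown because they are what tells the forms apart. The shared bases (98531809 to 98531838) are in lower case and each form's own bases are in capitals, from 98532823 for alpha and from 98537475 for beta.
LAP2 alpha: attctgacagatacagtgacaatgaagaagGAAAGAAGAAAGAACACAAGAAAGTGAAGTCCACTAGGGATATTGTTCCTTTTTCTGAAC
LAP2 beta: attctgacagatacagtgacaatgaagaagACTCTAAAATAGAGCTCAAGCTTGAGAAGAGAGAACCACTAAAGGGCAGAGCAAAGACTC

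Of all TMPO counts, LAP2 alpha took 21.5%, 22.0% and 23.0% in the MCF10A libraries, 45.4%, 44.8% and 45.0% in those of MCF10AT1 and 33.8%, 31.1% and 33.2% in those of MCF10Ca1a. LAP2 beta took 74.4%, 72.2% and 73.2%, then 51.7%, 51.9% and 52.3%, then 60.8%, 63.3% and 62.2%. The alpha share was highest in MCF10AT1 and the beta share lowest there, with no overlap between lines. The log2 ratio of LAP2 alpha to the rest of the gene was higher by 1.53 ± 0.08 in MCF10AT1 than in MCF10A (limma adjusted p 1.19e-04), and the ratio for LAP2 beta was -1.34 ± 0.08 (1.61e-04). From MCF10AT1 to MCF10Ca1a the alpha ratio fell by 0.76 ± 0.08 (6.48e-04), and edgeR's diffSpliceDGE did not call it. In TPM, LAP2 alpha was 35.4 ± 2.5 (SD, n = 3), 49.8 ± 3.0 and 11.6 ± 0.6 in the 3 lines, and LAP2 beta was 107 ± 12, 52.0 ± 3.0 and 20.2 ± 0.8.

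BANF1 encodes barrier-to-autointegration factor, which bridges DNA and LEM-domain proteins. Its TPM was 303, 293 and 293 in MCF10A, 348, 343 and 321 in MCF10AT1, against 239, 244 and 251 in MCF10Ca1a. BANF1 rose by 0.27 ± 0.05 on the log2 scale from MCF10A to MCF10AT1 (adjusted p 4.89e-04) and fell by 0.66 ± 0.05 from MCF10AT1 to MCF10Ca1a (5.00e-08). It overlaps EIF1AD on the opposite strand. Both of its main transcripts encode the same 89 codons. The share of BANF1-202 was 20.5% ± 0.3 (SD, n = 3) of BANF1 counts in MCF10A, 12.4% ± 0.3 in MCF10AT1 and 17.6% ± 0.5 in MCF10Ca1a, and that of BANF1-201 was 77.5% ± 0.3, 85.6% ± 0.4 and 79.5% ± 0.6. The BANF1-202 ratio was lower in MCF10AT1 than in MCF10A by limma (log2 difference -0.87 ± 0.09, adjusted p 0.00304) and was not called by diffSpliceDGE.

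**Figure D3:**
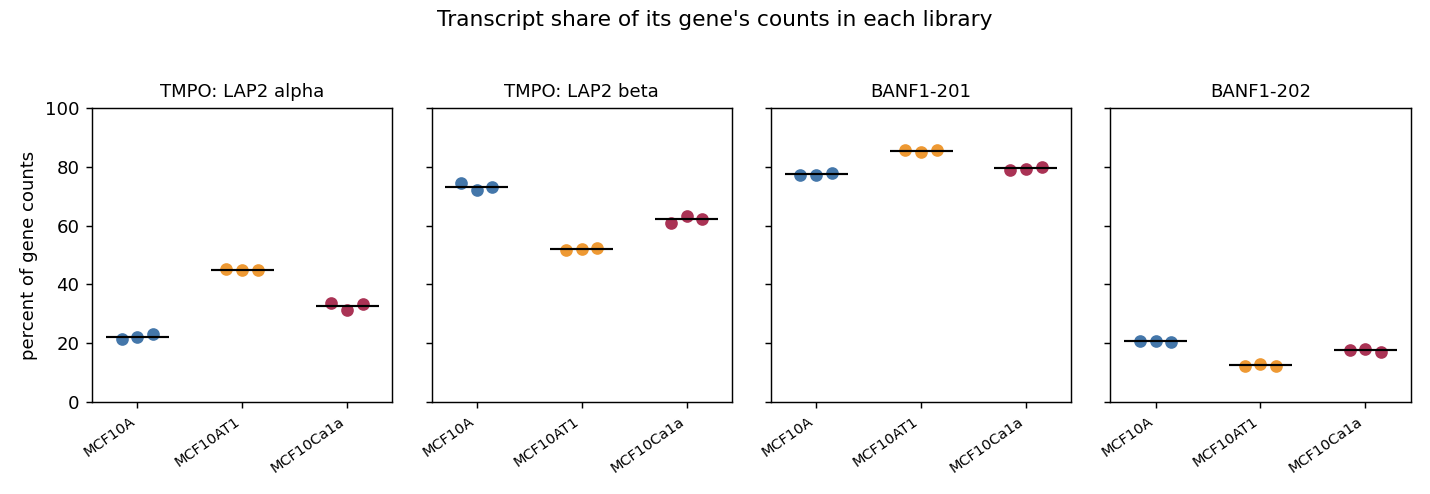
Percent of the gene's counts (vertical axis, 0 to 100) for 2 TMPO and 2 BANF1 transcripts in the 3 libraries of each line (points), with the mean as a bar. LAP2 alpha is near 22.2% in MCF10A, 45.1% in MCF10AT1 and 32.7% in MCF10Ca1a.

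Over the members, 12 transcripts entered the test of shares. It called 2 higher and 2 lower between MCF10AT1 and MCF10A, 3 higher and 2 lower between MCF10Ca1a and MCF10AT1, and 2 and 2 between MCF10Ca1a and MCF10A. Apart from 1 LEMD2 transcript in the second comparison, these were pairs of main forms of the same gene. The pairs were of TMPO and BANF1 in the first 2 comparisons and of TMPO and LMNA in the third. Each pair made up most of its gene's counts, so a rise of 1 form went with a fall of the other. The calls of a pair are therefore not separate results. Of all 32363 transcripts tested, 5.47% were called in the first of these comparisons (2.88% higher and 2.59% lower), 25.8% in the second (12.4% and 13.4%) and 31.7% in the third (16.1% and 15.6%). A share that was not called may still differ. The LMNA calls, between MCF10Ca1a and MCF10A, were small: the transcript ENST00000368300.9, a lamin A form of 664 codons, took 28.4% ± 0.5 (SD, n = 3) of LMNA counts in MCF10A and 31.9% ± 0.8 in MCF10Ca1a (limma adjusted p 0.0372), and this call was lost under most alternatives. By TPM the same transcript took 18.2% ± 0.3 and 19.4% ± 1.7. The largest LMNA transcript, ENST00000677389.1, with 64.6% ± 0.3 and 60.8% ± 0.6, is not in GENCODE 29, so its form was not assigned, the share of lamin A as a whole is not known here, and lamins A and C could not be compared. The main LEMD2 transcript took 79.8% ± 0.5 of LEMD2 counts in MCF10AT1 and 90.0% ± 3.6 in MCF10Ca1a (limma adjusted p 0.0305), and the call was lost whenever 1 of the MCF10AT1 libraries, whichever it was, was left out. EMD transcripts did not enter the test, since EMD had under 20 counts in MCF10Ca1a.

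LEMD2, LEMD3 and ANKLE2 encode LEM-domain proteins that stay associated with membrane, and ANKLE2 acts on BANF1 protein when the envelope reforms. LEMD2 was the member that rose in MCF10Ca1a, with 38.8, 35.5 and 33.2 CPM in MCF10A, 34.6, 33.0 and 34.5 in MCF10AT1, against 45.9, 44.0 and 43.8 in MCF10Ca1a. It rose by 0.39 ± 0.06 on the log2 scale from MCF10AT1 to MCF10Ca1a (adjusted p 3.36e-05), and the difference between MCF10AT1 and MCF10A was -0.07 ± 0.06 (0.287). LEMD3 had 22.1, 20.3 and 17.5 TPM in MCF10A, 15.6, 15.1 and 14.8 in MCF10AT1, against 16.1, 16.2 and 16.0 in MCF10Ca1a. It fell by 0.22 ± 0.06 from MCF10A to MCF10AT1 (0.00712), or by 0.15 without MCF10A replicate 1 and by 0.37 on log2(TPM + 1). Its difference between MCF10Ca1a and MCF10AT1 was -0.12 ± 0.07 (0.102) by counts and 0.08 on log2(TPM + 1), and 6 of 20 alternatives called it. ANKLE2 had 54.2, 53.6 and 49.1 TPM in MCF10A, 35.8, 33.2 and 33.8 in MCF10AT1, against 32.7, 31.8 and 30.5 in MCF10Ca1a. It fell by 0.38 ± 0.05 and then by 0.30 ± 0.05 (5.82e-06 and 4.19e-05), and on log2(TPM + 1) the first was -0.60 and the second call was lost (-0.11, 0.113).

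**Figure D4:**
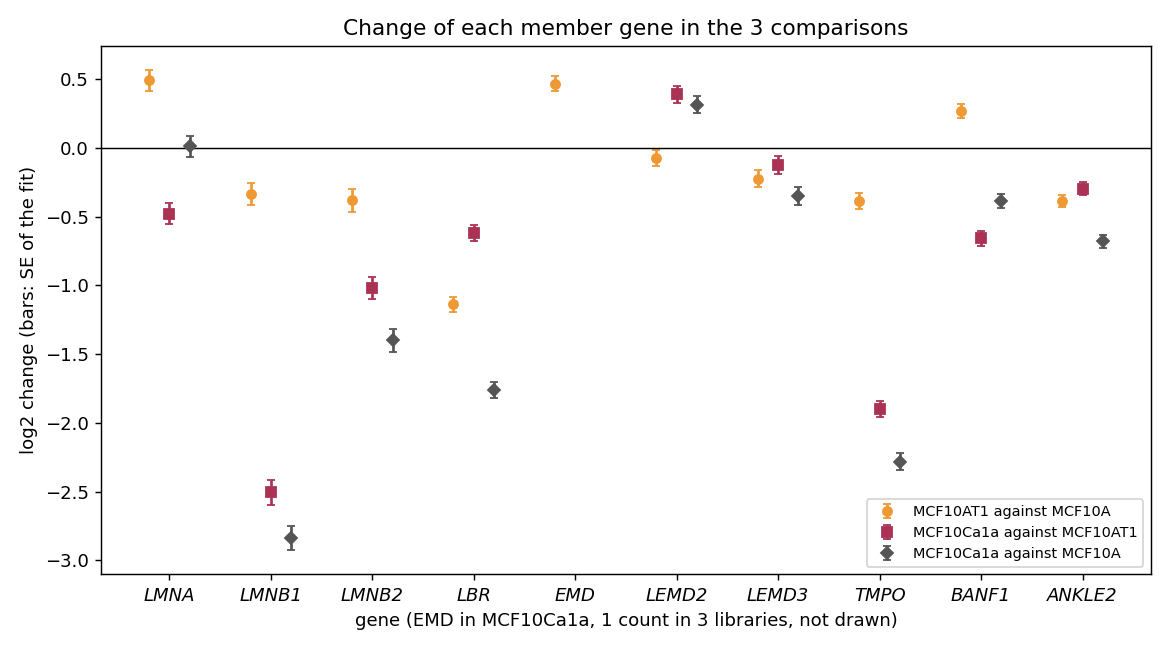
Log2 change of each member gene (vertical axis) in the 3 comparisons (symbols), with the standard error of the edgeR fit as bars. LMNB1 and TMPO have the lowest values drawn, and EMD in MCF10Ca1a, with 1 count in 3 libraries, is left out.

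Summed over EMD, TMPO, LEMD2, LEMD3 and ANKLE2, TPM was 339 ± 32 (SD, n = 3) in MCF10A, 277 ± 10 in MCF10AT1 and 115 ± 3 in MCF10Ca1a. EMD gave 22.7% of the sum in MCF10A, 34.5% in MCF10AT1 and 0.0199% in MCF10Ca1a. LEMD2 gave 6.58%, 7.03% and 25.1%, and ANKLE2 gave 15.5%, 12.4% and 27.5%. Among all members, BANF1 and LMNA had the highest TPM in MCF10A and MCF10AT1, where their ranges overlapped, and LMNA alone was highest in MCF10Ca1a. The lowest was LEMD3 in MCF10AT1. In MCF10A the ranges of LEMD2 and LEMD3 overlapped at the bottom. EMD was lowest in MCF10Ca1a, followed by LMNB1 and LEMD3, whose ranges overlapped.

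Of 39 genes on lists of lamin-processing enzymes, nuclear envelope proteins and binding partners, 12 were higher and 18 lower in MCF10AT1 than in MCF10A, 12 higher and 15 lower in MCF10Ca1a than in MCF10AT1, and 12 higher and 20 lower in MCF10Ca1a than in MCF10A. Not called were 9, 12 and 7 of them. Of all genes tested, 61.6%, 78.4% and 80.9% were called in these comparisons. The list's median log2 changes were -0.08, -0.01 and -0.17, against -0.00, -0.04 and -0.05 over all genes. LEMD1, a LEM-domain gene outside the members, was counted 0, 4 and 3 times in the MCF10A libraries, 92, 98 and 74 times in those of MCF10AT1 and 268, 232 and 246 times in those of MCF10Ca1a, with no overlap. It rose by 5.17 ± 0.33 and then by 2.39 ± 0.17 on the log2 scale (adjusted p 1.27e-08 and 1.29e-08), though the first change rests on 7 counts in MCF10A and was 1.93 on log2(TPM + 1), a scale that understates changes of low genes.

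Among 5 SUN and nesprin genes, which link the nucleus to the cytoskeleton, SYNE3 rose by 1.97 ± 0.11 from MCF10A to MCF10AT1 (adjusted p 2.08e-09) and fell by 3.03 ± 0.13 from there to MCF10Ca1a (4.93e-11), or 0.68 and -1.02 on log2(TPM + 1). In the first of these comparisons SYNE2 fell by 1.11 ± 0.09 (2.36e-07) and SYNE1 by 1.19 ± 0.12 (8.59e-07). On log2(TPM + 1) these were -1.71 for SYNE2 and -0.60 for SYNE1. SYNE2 fell by 1.85 ± 0.10 from MCF10A to MCF10Ca1a (6.38e-10), and with length-scaled counts it was -1.80 between MCF10AT1 and MCF10A and -3.01 between MCF10Ca1a and MCF10A. SYNE1 between MCF10Ca1a and MCF10A was -0.79 and turned to 0.57 with length-scaled counts. Of 4 genes for BANF1 kinases and phosphatase subunits, 4 were higher in MCF10AT1 than in MCF10A, 0 were higher and 3 lower in MCF10Ca1a than in MCF10AT1, and 2 were higher and 2 lower in MCF10Ca1a than in MCF10A. Over all genes, 29.8%, 38% and 39% were higher and 31.8%, 40.3% and 41.9% lower in these comparisons. VRK1, a kinase that releases BANF1 protein from DNA, rose by 0.29 ± 0.05 from MCF10A to MCF10AT1 (2.06e-04). It fell by 1.58 ± 0.05 from MCF10AT1 to MCF10Ca1a (6.85e-12). Of 5 prelamin processing genes, 0 were higher and 4 lower in the first comparison, 1 higher and 2 lower in the second, and 0 higher and 3 lower in the third. Among them ZMPSTE24, the protease that matures lamin A, fell by 0.22 ± 0.06 in the first (adjusted p 0.00388). Of 6 genes for membrane sealing at the envelope, 3 were higher and 1 lower in the first comparison, 4 higher and 1 lower in the second, and 5 higher and 1 lower in the third. TOR1AIP2, which encodes a torsin activator, fell by 0.81 ± 0.05 from MCF10A to MCF10AT1 (8.65e-09) and rose by 1.46 ± 0.05 from MCF10AT1 to MCF10Ca1a (8.58e-12). Its difference between MCF10Ca1a and MCF10A was 0.65 ± 0.05 (2.55e-08). NRM, the inner membrane protein nurim, fell by 1.71 ± 0.10 from MCF10A to MCF10Ca1a (1.12e-09).

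**Figure D5:**
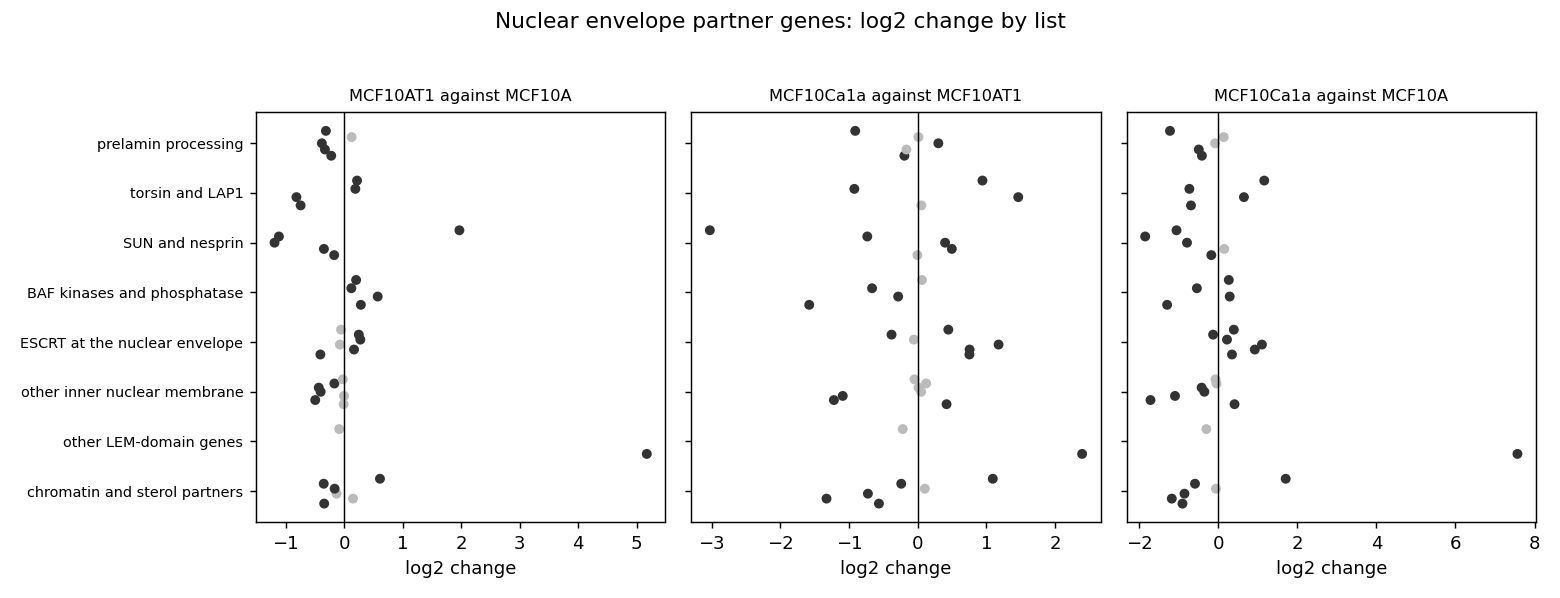
Log2 change (horizontal axis) of each of 39 partner genes by list (vertical axis) in the 3 comparisons. Dark points passed an adjusted p of 0.05 and grey points did not; LEMD1 lies farthest to the right in each panel.

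The genes whose log2(CPM + 1) followed EMD most closely over the 9 libraries, among 13094 candidates, were INPP5D, TRIM22 and H2AZ2, with a Pearson r of 0.9998, 0.9997 and 0.9997. For LMNB1 they were UHRF1, MEN1 and USP40, at 0.9997, 0.9996 and 0.9996. With 3 lines of 3 libraries, these values describe the order and spacing of 3 line means. INPP5D had 5, 3 and 3 counts in MCF10Ca1a, against 3610 to 4154 in MCF10A, and TRIM22 had 4, 7 and 7 against 2413 to 2759. H2AZ2 was not near 0, with 1027, 1017 and 1073 counts in MCF10Ca1a against 6956 to 7652 in MCF10A, and fell by 1.87 ± 0.05 on the log2 scale.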

How the data were processed

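RNA-seq of 9 libraries, 3 from each of 3 cell lines, was analysed. The deposited gene and transcript tables hold estimated counts and TPM. Per the submitters' processing notes they came from Salmon with hg38. Versions, the strand setting and the annotation are not given in the sources used here. Length-scaled and scaled estimated counts, also deposited, served as alternatives.

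Counts were rounded and genes filtered with filterByExpr (minimum count 10, minimum total 15), leaving 17910. edgeR 4.0.16 (TMM, quasi-likelihood, all 9 libraries in 1 fit, R 4.3.3) gave log2 changes, standard errors and Benjamini-Hochberg adjusted p over all genes tested, with a threshold of 0.05. Transcript shares were tested with limma 3.58.1 on log2 of (transcript count + 0.5) over (rest of the gene + 0.5), for transcripts with at least 5% of their gene in 1 line and genes with at least 20 counts in each line and at least 2 such transcripts, which left out ANKLE2, LMNB2 and LEMD3. The lamin ratio used an exact permutation test. Alternatives included DESeq2 1.42.0, other scalings, TPM, thinning and leaving out each library.

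The gene and share tests were checked on simulated counts in which 200 genes or transcripts changed, by 2-fold or 4-fold in equal numbers. edgeR recovered 94 of the 2-fold and 100 of the 4-fold changes, with 17 false calls. With the spread estimated from the libraries, the share test recovered 0 of the 2-fold and 18 of the 4-fold changes, with 2 false calls. With a flat dispersion of 0.02 it recovered 35 and 100, with 18 false calls. The share test can therefore miss real changes.

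Members and gene lists were chosen with earlier results of these data known. Named genes were all members, the 2 called partner genes that rose most and the 2 that fell most in each comparison, and the 3 genes most like EMD and LMNB1. The rule also covered member transcripts with at least 10% of their gene and the nearest tested neighbours. Some of these transcripts, among them those of EMD, and most of the neighbours are not named in the text. ZMPSTE24 was named outside that rule, after its values were seen. Positions come from GENCODE 29 on GRCh38, which held 107 of the 134 member transcripts.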

Additional observations from a re-analysis of the deposited data

How the results depend on the processing

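The total numbers of members and of partner genes called stayed within 1.5 times under each alternative run. Their split into higher and lower was not compared between alternatives. The differences in the LMNA to LMNB1 ratio kept their direction and also stayed within 1.5 times. The number of member transcript shares called was less stable. With diffSpliceDGE it was 2 between MCF10AT1 and MCF10A, 0 between MCF10Ca1a and MCF10AT1 and 1 between MCF10Ca1a and MCF10A, against 4, 5 and 4. With shares of 1% or more it was 10 and 7 in the comparisons of MCF10Ca1a with MCF10AT1 and with MCF10A. For MCF10Ca1a against MCF10A it was 2 with a pseudocount of 5, 2 on transcript TPM and 2 with the replicate block, and leaving out 1 library gave 2 to 4; the cause was not tested. Same-numbered libraries of different lines correlated at -0.17 to 0.20, and differently numbered ones at -0.20 to 0.18. These values gave no sign that the numbers pair the samples, though so few libraries cannot exclude it. With the replicate block 9 members were called in each comparison, and 29, 28 and 33 partner genes against 30, 27 and 32. SYNE1 between MCF10Ca1a and MCF10A turned from -0.79 to 0.57 with length-scaled counts, 0.58 with scaled counts, 0.46 on log2(TPM + 1) with and without the filter, and 0.68 on log2(TPM + 0.1), and the cause was not tested. On log2(TPM + 1) the median of all genes moved to -0.07, 0.13 and 0.06 in the 3 comparisons. The lower depth of MCF10Ca1a limits the precision of shares of low transcripts there.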
